A study of Mus musculus with 10 samples.

Results

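IGHV8 is a small family of mouse heavy-chain variable (V) genes. Each B cell joins 1 V, 1 D and 1 J segment into a heavy-chain gene, adds untemplated (N) nucleotides at the joins, and exposes the result through 3 loops, of which CDR1 and CDR2 are written in the V gene and CDR3 is made at the join. A naive cell carries the heavy chain as IgM and IgD; class switching to IgG, IgA or IgE and somatic mutation of the V gene follow activation. The family was read here from bulk B cell receptor libraries of deep cervical lymph nodes, which drain the brain and meninges, taken on day 20 from C57BL/6 wild-type mice with GL261 glioma cells implanted in the brain. GL261 is a mouse glioma cell line, and every mouse of both groups carried it. The groups were 5 mice given isotype IgG and 5 mice given anti-CTLA-4 antibody, which blocks an inhibitory receptor of T cells. There was 1 library per mouse and no mouse without a tumour, and the RNA came from all cells of the node, so more cells of a kind and more transcript per cell cannot be told apart.

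Members were all productive heavy-chain sequences, that is, sequences that the deposited tables mark as giving a protein, whose V call named only genes beginning IGHV8-, with alleles removed and calls to several genes kept joint. They were 17576 of 313384 productive heavy-chain sequences. Grouped into clonotypes, meaning a distinct combination of V call, J gene, junction and constant gene in a mouse, they were 15971 of 284547, or 1108 to 2372 per mouse. Whole libraries held 33568 to 63017 sequences with a summed deposited count of 382184 to 790139, and the productive heavy chain took 159157 to 362445 of it. Whether the count is of reads or of molecules is not stated, and the intervals and limits given for shares hold for counting error alone.

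The gene table of GRCm38.p6 lists 16 IGHV8 names on chromosome 12, of which 10 are V segments and 6 are pseudogenes. They lie scattered among the IGHV1 genes: IGHV8-12 sits between IGHV1-69 and IGHV1-70, IGHV8-8 between IGHV1-57 and IGHV1-58, and IGHV8-5 between IGHV1-49 and IGHV1-50. IGHV8-2 stands apart between IGHV6-7 and IGHV1-2, nearer the D segments. The calls named 7 of the V segments and left 3 (IGHV8-4, IGHV8-13 and IGHV8-14) unnamed. The germline sequence of the genes was read from the deposited alignments. The stretch from CDR1 to CDR2, with both loops in capitals, shows how alike the genes are and where they part:
IGHV8-12: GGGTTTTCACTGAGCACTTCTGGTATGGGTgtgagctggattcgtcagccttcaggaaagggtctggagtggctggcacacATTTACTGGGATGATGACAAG
IGHV8-8: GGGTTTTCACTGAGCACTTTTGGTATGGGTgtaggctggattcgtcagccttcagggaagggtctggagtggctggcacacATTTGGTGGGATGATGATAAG
IGHV8-5: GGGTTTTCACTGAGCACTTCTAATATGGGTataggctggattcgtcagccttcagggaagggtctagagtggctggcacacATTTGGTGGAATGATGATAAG
IGHV8-11: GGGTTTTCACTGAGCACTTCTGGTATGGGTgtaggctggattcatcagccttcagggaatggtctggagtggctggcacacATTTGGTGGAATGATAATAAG
IGHV8-2: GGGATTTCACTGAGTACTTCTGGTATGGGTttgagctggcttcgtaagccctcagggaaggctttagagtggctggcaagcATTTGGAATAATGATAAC
CDR1 spanned 30 nucleotides in each gene. CDR2 spanned 21, except for 18 in IGHV8-2. Over the 288 nucleotides before the junction, IGHV8-12 and IGHV8-8 differed at 15 positions (94.8% identity), IGHV8-8 and IGHV8-5 at 11 (96.2%), and IGHV8-12 and IGHV8-5 at 16 (94.4%). A CDR1 of 30 nucleotides marked 99.8% of IGHV8 clonotypes, against 1.17% of IGHV3 clonotypes and 0.881% of IGHV12 clonotypes, both from the same V gene clan.

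The 3' end of each V gene is shown with the first codon of the junction in capitals, since this codon normally encodes the cysteine that closes the V domain:
IGHV8-12: acatactacTGTgctcgaagagct
IGHV8-8: acatactacTGTgctcgaatagct
IGHV8-5: acatactacTGTgctcaaatagct
IGHV8-11: acatactacTGTgctcgaatagct
IGHV8-2: acatactacGGTgcttggagagag
IGHV8-9: acatactacTCTgctcgaagagcg
The codon was TGT, for cysteine, in IGHV8-12, IGHV8-8, IGHV8-5, IGHV8-11 and IGHV8-6. It was GGT, for glycine, in IGHV8-2 and TCT, for serine, in IGHV8-9. Among productive IGHV8-2 clonotypes 97.4% of junctions began with the germline ggtgcttgg, so the altered codon was read in the transcripts as well as in the reference.

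IGHV8-12 and IGHV8-8 made up almost all of the family. IGHV8-12 gave 8407 clonotypes and IGHV8-8 gave 6091, which are 52.6% and 38.1% of the family. IGHV8-12 took 3.04%, 3.03%, 2.97%, 2.44% and 2.81% of productive heavy-chain clonotypes in isotype mice 1 to 5, and 2.98%, 3.20%, 2.81%, 3.02% and 3.11% in anti-CTLA-4 mice 1 to 5. The groups overlapped, and isotype mouse 4 was the lowest. IGHV8-8 took 2.14%, 2.20%, 2.27%, 1.81% and 2.02% in the isotype mice and 2.23%, 2.25%, 1.93%, 2.28% and 2.12% in the anti-CTLA-4 mice, again overlapping and again lowest in isotype mouse 4. IGHV8-2, with 612 clonotypes, averaged 0.220% ± 0.0345 (SD, n = 10 mice), and IGHV8-5, with 591, averaged 0.206% ± 0.0239 (SD, n = 10). IGHV8-6 followed with 54 clonotypes and 0.0198% ± 0.00799 (SD, n = 10), and IGHV8-9 had 7 clonotypes in 4 mice. IGHV8-12 exceeded IGHV8-8 in 10 of 10 mice, by 0.816 percentage points ± 0.116 (SD), and IGHV8-8 exceeded IGHV8-2 in 10 of 10. IGHV8-2 and IGHV8-5 did not differ beyond their spread: IGHV8-2 was higher in 4 of 10 mice, with a difference of 0.0135 ± 0.0433 (SD).

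**Figure D1:**
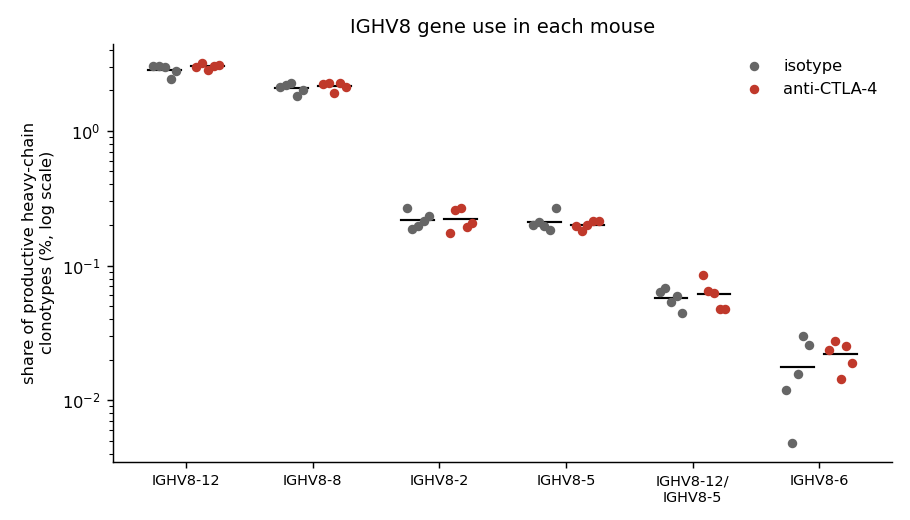
Share of productive heavy-chain clonotypes (percent, log scale) for the 6 most frequent IGHV8 calls, with 1 point per mouse, grey for isotype and red for anti-CTLA-4, and a black bar at each group mean. The points of both groups overlap for every call; IGHV8-12 and IGHV8-8 lie between 1.81% and 3.20%, and IGHV8-2 and IGHV8-5 between 0.174% and 0.267%.

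The first comparison was between treatments, to see whether blockade of CTLA-4 went with more or less use of the family. The family took 5.70% ± 0.253 of clonotypes in anti-CTLA-4 mice and 5.47% ± 0.414 in isotype mice (SD, n = 5 each), a difference of 0.223 percentage points with overlapping groups (p = 0.397 in a two-sided exact permutation test, and 0.744 after Benjamini-Hochberg adjustment over 10 between-group tests). Without isotype mouse 4, the lowest, the difference was 0.048, and with counts of 2 or more it was 0.418. Per gene, edgeR's quasi-likelihood test on clonotype numbers gave log2 fold changes, with isotype as the base, of 0.09 ± 0.06 for IGHV8-12, 0.06 ± 0.06 for IGHV8-8, 0.01 ± 0.15 for IGHV8-2, -0.05 ± 0.14 for IGHV8-5 and 0.02 ± 0.22 for the joint call IGHV8-12/IGHV8-5 (± standard error). The smallest adjusted p among these 5 calls was 0.633, for IGHV8-12 (edgeR, Benjamini-Hochberg over 96 V calls). Without isotype mouse 4 the log2 fold changes were 0.028 for IGHV8-12 and 0.0024 for IGHV8-8. Of these 5 calls 0 passed an adjusted p of 0.05, against 0 of all 96 V calls (0%) by edgeR; 11 of the 96 had an unadjusted p under 0.05, with 0 of them in IGHV8, and DESeq2 also called 0. In the same V gene clan, 0 of 8 IGHV2 calls, 0 of 5 IGHV3 calls and 0 of 1 IGHV12 call passed in either direction. The nearest was IGHV12-3, with a log2 fold change of -0.87 (edgeR adjusted p = 0.0543), which passed under several alternatives with an edgeR adjusted p of 0.00713 to 0.0437. The median log2 fold change was 0.02 over the 5 IGHV8 calls and 0.00038 over all 96. The V genes outside the family whose log2 share followed that of IGHV8 most closely over the 10 mice were IGHV1-78 (Pearson r = 0.586), IGHV1-69 (r = 0.573) and IGHV1-82 (r = 0.545), out of 83 genes; shares of 1 library sum to a fixed total, and the values are a description.

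The second comparison set productive against non-productive rearrangements, since a non-productive heavy chain is carried by a cell without being judged as a protein. Here the genes went opposite ways. IGHV8-8 took 2.12% ± 0.158 of productive but 1.19% ± 0.275 of non-productive clonotypes and was lower among the latter in 10 of 10 mice, and IGHV8-12 took 2.94% ± 0.213 and 2.24% ± 0.463, lower among the non-productive in all mice but 1 (SD, n = 10). IGHV8-2 took 0.220% of productive clonotypes but 2.50% ± 0.469 of non-productive ones and was higher among the latter in 10 of 10 mice. Of all IGHV8-2 clonotypes, 570 of 1182 were non-productive, 465 of them out of frame. That share was 36.2%, 50%, 47.5%, 41.2% and 45.7% in isotype mice 1 to 5 and 56.5%, 39.1%, 45.6%, 59.9% and 49.2% in anti-CTLA-4 mice 1 to 5. It was many times the 6.69% of the median V gene, and placed IGHV8-2 at rank 10 of 97 genes with at least 100 clonotypes. IGHV8-12 (5.55%), IGHV8-5 (5.89%) and IGHV8-8 (4.12%) lay below that median. Of the non-productive clonotypes, 253 of 494 of IGHV8-12 and 129 of 262 of IGHV8-8 had a junction in frame. The shares of single genes were not recomputed without in-frame junctions.

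IGHV8-11 was found in all 10 mice, in 2 to 17 clonotypes each, but never as productive: its 81 clonotypes were all non-productive, 69 out of frame and 12 in frame. Its germline V sequence, shown above only in part, held no stop codon before the junction and keeps the cysteine codon. For the family as a whole the share was 5.59% ± 0.344 among productive and 7.14% ± 0.622 among non-productive clonotypes, lower among productive ones in 10 of 10 mice, by 1.55 percentage points (two-sided exact sign-flip permutation p = 0.00195, the smallest possible with 10 mice, Benjamini-Hochberg adjusted p = 0.0026 over 8 within-mouse tests). With the family reduced to IGHV8-5, IGHV8-8 and IGHV8-12, a choice made after the data were seen, the sign turned: their share was 1.67 percentage points higher among productive clonotypes. That value is a description, since the genes left out include those seen to go the other way. Restricted to counts of 2 or more, the family difference was -1.08 and no longer passed (exact permutation test, adjusted p = 0.0599). Against out-of-frame non-productive clonotypes alone, also a choice made after the data were seen, it was -2.22 (exact sign-flip permutation test, adjusted p = 0.0026).

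**Figure D2:**
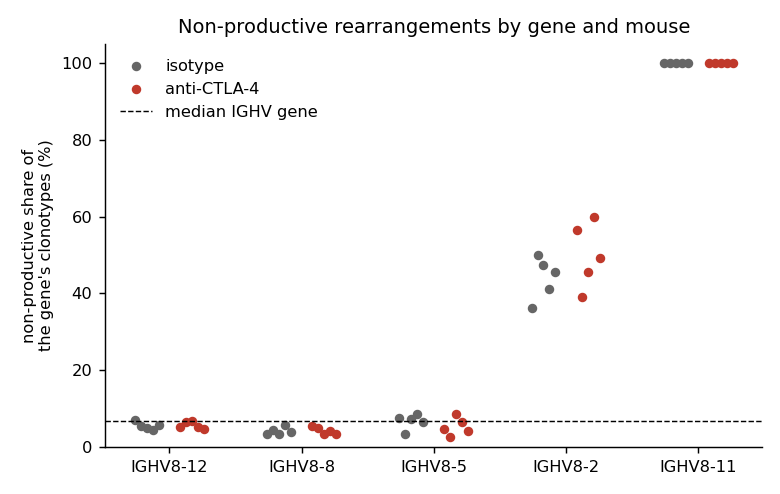
Non-productive clonotypes as a percent of all clonotypes of a gene, with 1 point per mouse and the median over 97 V genes as a dashed line. IGHV8-12, IGHV8-8 and IGHV8-5 lie near or below the line, IGHV8-2 between 36.2% and 59.9%, and IGHV8-11 at 100% in every mouse.

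The joint calls were a special case. They gave 209 productive clonotypes: 166 called IGHV8-12/IGHV8-5, 32 called IGHV8-5/IGHV8-8 and 11 called IGHV8-12/IGHV8-8. Calls are usually joint when a sequence is too short or too mutated to part near-identical genes, but these carried a median of 40 mismatches to the named germline (35 to 58), against a median of 0 in single-gene calls. The mismatches were the same ones from clonotype to clonotype: 104 positions of the 3 joint calls were mismatched in over 50% of their IgM clonotypes, and no position of a single-gene IGHV8 call was. Nearly all fell into one of 2 sequences, which are shown from CDR1 to CDR2 with both loops in capitals:
first sequence: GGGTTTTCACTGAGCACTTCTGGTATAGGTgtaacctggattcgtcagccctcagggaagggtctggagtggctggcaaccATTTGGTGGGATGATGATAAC
second sequence: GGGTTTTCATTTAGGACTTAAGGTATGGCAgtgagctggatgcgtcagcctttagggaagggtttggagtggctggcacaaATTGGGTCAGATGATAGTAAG
The first was carried by 167 productive and 73 non-productive clonotypes, found in all 10 mice (12 to 29 productive clonotypes each), and differed from the nearest called germline, IGHV8-12, at 40 of 288 positions (86.1% identity). The second was carried by 29 productive and 28 non-productive clonotypes and differed from IGHV8-8 at 37 positions. The second holds a stop codon (TAA) as codon 32, within CDR1, although the tables mark the 29 clonotypes as productive. Of the 206 productive joint clonotypes with a V gene in frame, 31 had a stop codon before the junction. Such stops were found in 0.575% of in-frame IGHV8-12 clonotypes and 0.664% of IGHV8-8 clonotypes. Which gene each sequence belongs to was not determined. The 209 joint clonotypes were all IgM or IgD, with 0 switched, and for the 166 called IGHV8-12/IGHV8-5 a count of 0 allows a switched share of up to 1.81%.

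The third comparison was of the CDR3 and J genes between IGHV8 and all other V genes of the same mouse. CDR3 averaged 13.0 amino acids in IGHV8 and 11.7 in other V genes, a difference of 1.31 ± 0.0589 (SD, n = 10), in the same direction in 10 of 10 mice (two-sided exact sign-flip permutation p = 0.00195, adjusted p = 0.0026). IGHV8 had the highest mean CDR3 length of the 15 V families with at least 200 clonotypes, followed by IGHV15 at 12.9; IGHV1, the largest family, averaged 11.8. The distribution was shifted at both ends. Loops of at most 8 amino acids made up 1.94% ± 0.356 of IGHV8 and 11.5% ± 0.366 of other clonotypes, and loops of at least 16 made up 14.9% ± 1.27 and 6.99% ± 0.265 (SD, n = 10).

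Most of the added junction length was aligned to the V gene. V-encoded nucleotides contributed 11.6 ± 0.109 to the IGHV8 junction and 9.08 ± 0.0181 to other junctions, J-encoded ones 17.3 ± 0.132 and 16.3 ± 0.0583, and the part between V and J 16.1 ± 0.126 and 15.7 ± 0.0587 (SD, n = 10). N nucleotides between V and D were fewer in IGHV8, 4.03 ± 0.156 against 4.59 ± 0.0219. The V part repeats the gene ends shown above: 86.8% of IGHV8-12 junctions began tgtgctcga, 40.5% tgtgctcgaaga and 10.9% tgtgctcgaagagct, and 44.2% of IGHV8-8 junctions began tgtgctcgaata. Within each J gene the IGHV8 loop was longer in 10 of 10 mice, by 1.15 amino acids for IGHJ1, 1.38 for IGHJ2, 1.29 for IGHJ3 and 0.909 for IGHJ4.

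J use differed as well. IGHV8 used IGHJ4 in 31.1% ± 2.15 of clonotypes against 26.8% ± 0.584 for other V genes, and IGHJ1 in 20.5% ± 1.42 against 16.1% ± 0.377, both higher in 10 of 10 mice. IGHJ3 (19.2% ± 1.61 against 23.9% ± 0.423) and IGHJ2 (29.2% ± 1.30 against 33.2% ± 0.501) were lower in 10 of 10 mice (SD, n = 10). Each of these 4 differences, of 4.32, 4.36, -4.66 and -4.02 percentage points, had an exact sign-flip permutation p of 0.00195 and an adjusted p of 0.0026. They were not the most extreme J profile among V families: IGHJ4 reached 42.7% in IGHV2, and IGHV8 ranked at place 5 of 15 for IGHJ4 and 8 for IGHJ1. Among the members, IGHV8-12 used IGHJ4 most (33.9%), IGHV8-8 used IGHJ2 most (32.5%), IGHV8-2 likewise (36.6%), and IGHV8-5 used IGHJ3 most (33.5%), in clonotypes of all mice together. Between treatments neither CDR3 length (12.99 ± 0.0498 after anti-CTLA-4 and 13.03 ± 0.0779 after isotype, exact permutation p = 0.341) nor any J gene differed beyond the spread (smallest exact permutation p = 0.325 for IGHJ2, adjusted p = 0.744).

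**Figure D3:**
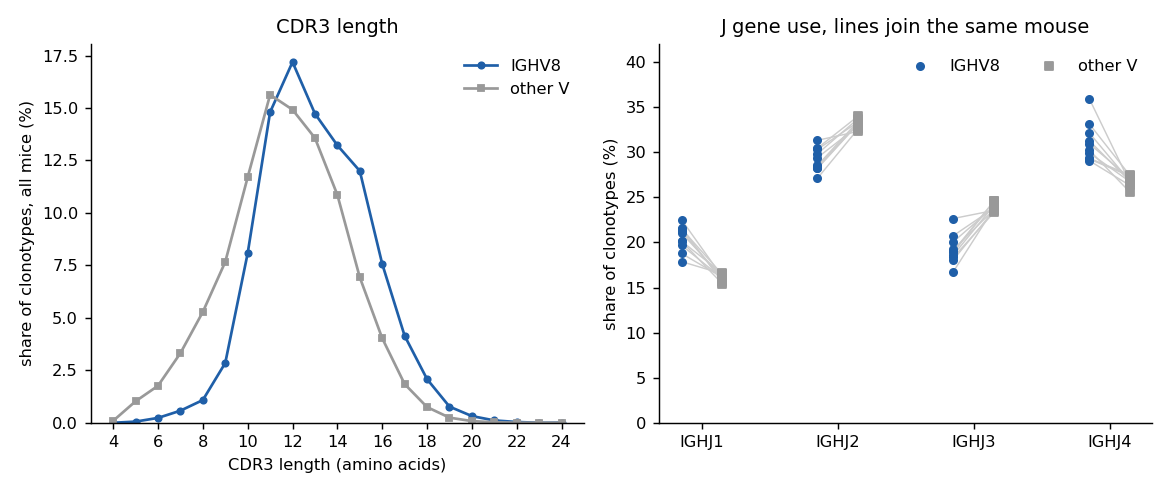
Left, share of clonotypes (percent, all mice together) at each CDR3 length in amino acids for IGHV8 (blue circles) and other V genes (grey squares). Right, share of clonotypes using each J gene in IGHV8 and in other V genes, with 1 point per mouse and a line joining the same mouse; IGHJ1 and IGHJ4 are higher and IGHJ2 and IGHJ3 lower in IGHV8 in all 10 mice.

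By class, the family was mostly IgM and IgD, the classes of cells that have not switched. Its clonotypes were 11737 IgM, 3819 IgD, 306 IgG, 75 IgA and 8 IgE, and 26 had no constant call. IgM clonotypes used IGHV8 at 5.88% ± 0.118 after anti-CTLA-4 and 5.49% ± 0.393 after isotype, and IgD clonotypes at 5.33% ± 0.430 and 5.44% ± 0.463 (SD, n = 5). The IgM difference of 0.385 percentage points did not pass after adjustment (two-sided exact permutation p = 0.0397, adjusted p = 0.397). The groups overlapped, and isotype mouse 4 was the lowest at 4.84%. Among IgG clonotypes the share ran from 1.36% to 8.06% in anti-CTLA-4 mice and from 1.54% to 9.43% in isotype mice, on 3 to 92 IGHV8 IgG clonotypes per mouse. IgA shares ran from 1.27% to 5.71% and from 0.862% to 15%, on 1 to 27 clonotypes, too few to rank mice. Of the IgG clonotypes 124 were IGHG2B, 59 IGHG1, 51 IGHG2C and 49 IGHG3, and 23 were called to 2 IgG genes at once.

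The switched share, meaning IgG, IgA and IgE together over all classed clonotypes of the family, was 4.79%, 2.07%, 1.76%, 1.79% and 0.273% in isotype mice 1 to 5. It was 4.69%, 7.88%, 1.45%, 0.737% and 1.27% in anti-CTLA-4 mice 1 to 5. The groups overlapped, and the mean of 3.20% ± 3.04 against 2.14% ± 1.64 did not pass (SD, n = 5; two-sided exact permutation p = 0.595, adjusted p = 0.744). Without anti-CTLA-4 mouse 2 the difference of 1.07 percentage points became -0.0997. Within mice, IGHV8 was switched in 2.67% ± 2.37 and other V genes in 3.11% ± 1.84 (SD, n = 10), with IGHV8 higher in 4 of 10 mice (exact sign-flip permutation p = 0.527). Anti-CTLA-4 mouse 3 stood out, with 1.45% of IGHV8 against 6.01% of other clonotypes switched, and without it the difference of -0.438 became 0.0196. With all mice pooled, 217 of 8392 IGHV8-12 clonotypes were switched (2.59%, 95% exact Clopper-Pearson interval 2.26 to 2.95) and 164 of 6081 of IGHV8-8 (2.70%, 2.30 to 3.14). IGHV8-5 had 7 of 590 (1.19%, 0.478 to 2.43), and IGHV8-2 had 1 of 612 (0.163%, 0.00414 to 0.907). Clonotypes of 1 lineage and of 1 mouse were counted as independent in these intervals, and the differences between genes were not tested over mice. Isotype mouse 1 gave 66 and anti-CTLA-4 mouse 2 gave 58 of the 217 switched IGHV8-12 clonotypes.

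V mismatches were counted per 100 aligned V nucleotides. Positions mismatched in over 50% of a V call's IgM clonotypes, which are likely reference variants, were left out; within IGHV8 these lay only in the joint calls. IgM clonotypes of IGHV8 had 0.0998 ± 0.0210 mismatches and those of other V genes 0.108 ± 0.0156 (SD, n = 10), with IGHV8 higher in 5 of 10 mice (exact sign-flip permutation p = 0.342, adjusted p = 0.391). With all positions kept, IGHV8 was higher by 0.146 (exact sign-flip permutation p = 0.00195). With the likely reference variants again left out, and the joint calls of every V family too, IGHV8 was higher by 0.00573 (exact sign-flip permutation p = 0.357). Among single-gene calls, 84.3% ± 2.63 of IgM clonotypes had no V mismatch, against 85.4% ± 1.28 for other V genes. Between treatments the IgM level was 0.105 ± 0.0134 after anti-CTLA-4 and 0.0944 ± 0.0271 after isotype (SD, n = 5; exact permutation p = 0.429). With the joint calls left out, a choice made after the data were seen, that difference of 0.011 was 0.0256 (exact permutation p = 0.0317, adjusted p = 0.317).

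The most frequent IgM mismatches lay at the V end, where N nucleotides can be aligned as V: A298G of IGHV8-12, counted from 1 at the first base of the V gene, was in 37 of 6211 clonotypes (0.596%) and A300G of IGHV8-8 in 37 of 4409 (0.839%). The framework change C111T of IGHV8-12 was in 25 IgM clonotypes, 17 of them from anti-CTLA-4 mouse 5. IgG and IgA clonotypes of IGHV8 together had more mismatches than its IgM clonotypes in every mouse except anti-CTLA-4 mouse 3, where they had 0.0417 against 0.0828; this was not tested. Among single-gene calls in IgG, IGHV8 averaged 0.397 ± 0.309 mismatches per 100 and other V genes 0.611 ± 0.246 (SD, n = 10). In IgA single-gene calls the values were 0.253 ± 0.279 against 0.857 ± 0.261 (SD, n = 10). The IGHV8 values rest on 306 IgG and 75 IgA clonotypes, with only 3 to 92 and 1 to 27 per mouse. These class differences between IGHV8 and other V genes were not tested. Across IgG and IgA of the 4 most frequent single genes, clonotypes of all mice pooled, CDR1 held 0.630 mismatches per 100 nucleotides, CDR2 0.413 and the framework 0.272. In IgM the values were 0.0818, 0.0739 and 0.0677. Junction positions, with 77 of the 428 IgG and IgA mismatches, were left out. Of the 72 in CDR1, 16 were A100G of IGHV8-12, 14 of them in isotype mouse 1. Of the 33 in CDR2, 7 were A161T of IGHV8-12, 6 of them in anti-CTLA-4 mouse 5. The regions were not compared over mice or lineages. Between treatments IgG and IgA together were at 0.398 ± 0.272 and 0.322 ± 0.0908 (SD, n = 5; exact permutation p = 0.587, adjusted p = 0.744). Without anti-CTLA-4 mouse 5 the difference of 0.0763 became -0.0102.

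Weighted by deposited count, the family looked different from mouse to mouse. It took 12.4%, 3.67%, 2.10%, 1.42% and 2.21% of heavy-chain counts in isotype mice 1 to 5 and 2.48%, 2.00%, 0.703%, 9.97% and 1.68% in anti-CTLA-4 mice 1 to 5. Isotype mouse 1 and anti-CTLA-4 mouse 4 stood far above the rest, while the share of clonotypes in these mice was 5.74% and 5.80%. The group means, 3.36% ± 3.75 after anti-CTLA-4 and 4.36% ± 4.57 after isotype, did not differ beyond the spread (SD, n = 5; exact permutation p = 0.556), and the difference of -0.997 became 1.01 without isotype mouse 1. In both high mice a few clonotypes held the counts: the 5 largest gave 81.7% and 79.9% of the family's counts, against 23.3% to 57.1% in the other 8 mice. In anti-CTLA-4 mouse 4 IgA held 69.2% of the family's counts, IgG 6.24% and IgM 19.7%, and in isotype mouse 1 IgA held 50.7%, IgG 36.6% and IgM 9.23%.

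**Figure D4:**
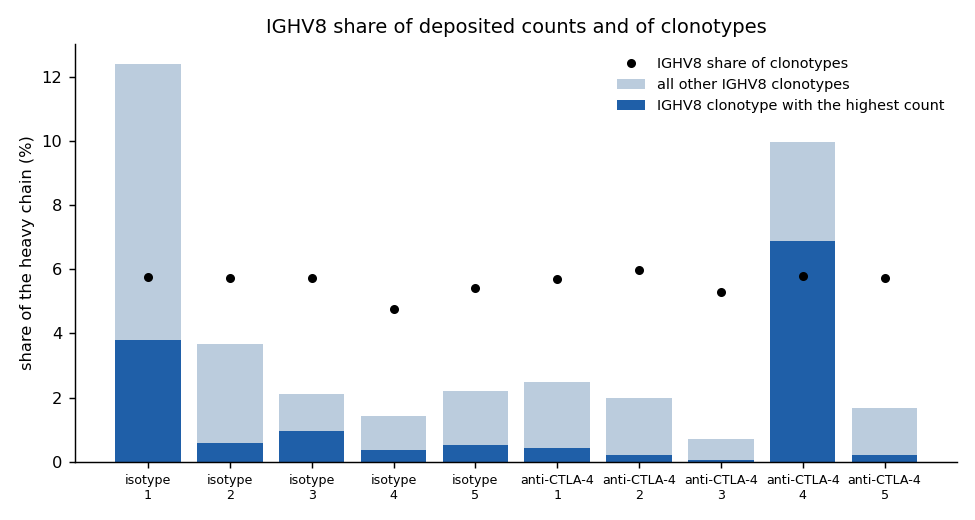
IGHV8 share of deposited heavy-chain counts in each mouse (bars, percent), with the clonotype of highest count in dark blue, and the IGHV8 share of clonotypes as black points. The bars range from 0.703% to 12.4% while the points stay between 4.77% and 5.98%.

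The clonotype of highest count was IgG or IgA in all 10 mice. It was IgA in all 5 isotype mice, and in anti-CTLA-4 mice IgG in 3 (mice 1, 2 and 3) and IgA in 2 (mice 4 and 5). The difference was not tested, and it rests on splitting clonotypes by constant gene: summed over constant genes, the leading junction of isotype mouse 1 was another one, with a count of 11705 and no IgA clonotype. The leading junction of isotype mouse 4 was that of isotype mouse 3. The junctions of the largest in each group and of a pair found in several mice are printed below. The bases between the V and J segments, D bases among them, are in capitals:
isotype mouse 1, IGHV8-12 with IGHJ4, IgA: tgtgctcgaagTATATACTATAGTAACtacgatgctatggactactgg
isotype mouse 3, IGHV8-8 with IGHJ2, IgA: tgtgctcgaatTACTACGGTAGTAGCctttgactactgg
anti-CTLA-4 mouse 4, IGHV8-8 with IGHJ2, IgA: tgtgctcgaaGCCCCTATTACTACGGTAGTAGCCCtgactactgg
anti-CTLA-4 mouse 1, IGHV8-12 with IGHJ2, IGHG2C: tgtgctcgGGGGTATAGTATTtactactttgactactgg
The anti-CTLA-4 mouse 4 clonotype had a count of 13055, which was 68.9% of the family's counts, 6.87% of all heavy-chain counts and 12.2% of all IgA counts of that mouse. Its most counted sequence had no V mismatch. The isotype mouse 1 clonotype had a count of 9760, 30.6% of the family's counts, and 1 V mismatch, A100G in CDR1. The isotype mouse 3 clonotype had a count of 2974, and the anti-CTLA-4 mouse 1 clonotype a count of 1504.

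The other leading clonotypes were smaller. In isotype mouse 2 it was an IGHV8-8/IGHJ1 IgA clonotype with a count of 1479 and 1 V mismatch (A274G), and in isotype mouse 5 an IGHV8-12/IGHJ4 IgA clonotype with 826. Anti-CTLA-4 mouse 2 had an IGHV8-8/IGHJ3 IGHG1 clonotype with 503, mouse 5 an IGHV8-8/IGHJ3 IgA clonotype with 455, and mouse 3 an IGHV8-12/IGHJ4 IGHG3 clonotype with 179. Of these 10 leading clonotypes only those of isotype mice 1 and 2 had any V mismatch in their most counted sequence, the only one read for mismatches.

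Some junctions of high count recurred identically in another mouse. The isotype mouse 3 junction had a count of 788 in isotype mouse 4 and had a count of 1 in anti-CTLA-4 mouse 3. The isotype mouse 1 junction had a count of 609 in isotype mouse 2, and the anti-CTLA-4 mouse 1 junction had 110 and 34 in anti-CTLA-4 mice 2 and 4. Clonotypes with more counts in another mouse were 0 to 0.984% of a mouse's IGHV8 clonotypes, but held 28.5% of the family's counts in isotype mouse 4 and 9.86% in isotype mouse 2. Neither carry-over between libraries nor separate formation of the same junction in several mice was tested. Sharing was otherwise rare. Of 15591 distinct IGHV8 rearrangements (V call, J gene and junction), 55 were in 2 mice, 7 in 3 and none in more, which makes 0.398% shared, against 0.609% of 260807 rearrangements of other V genes. Isotype mice 3 and 4 shared most, 12 rearrangements, which were 0.669% and 1.09% of theirs. Of 60 clonotypes with a count of at least 100, 23 had their rearrangement in another mouse. A rearrangement with several constant genes counts more than once here, and the 60 fell into 41 lineages. The same share was not computed for other V genes.

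Of the 7 rearrangements found in 3 mice, 3 were dominated by 1 mouse with a high count. The other 4 had low counts throughout. One of each kind is shown, with the bases between V and J in capitals:
IGHV8-12 with IGHJ4, total count 11883: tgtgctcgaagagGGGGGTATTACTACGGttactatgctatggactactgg
IGHV8-8 with IGHJ4, total count 5: tgtgctcgaatagatgctatggactactgg
The second has no base that the alignment leaves between V and J, and had a count of 1 to 3 in each of its mice (2 anti-CTLA-4, 1 isotype). The first had a count of 11705 in isotype mouse 1 alone and at least 8 in each of the other two.

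Lineages, which join clonotypes of a mouse with matching V and J genes and equally long junctions at 90% junction identity, numbered 1026 to 2076 per mouse within the family, and 90.3% to 95.8% held a single clonotype. Those with switched members numbered 4 to 25 per mouse. The largest, in anti-CTLA-4 mouse 2, had 87 clonotypes of IGHV8-12 and IGHJ3 with 69 distinct junctions (46 IgM, 40 IgG and 1 IgE), a mean of 1.78 V mismatches and 22 clonotypes with none. A lineage of anti-CTLA-4 mouse 5 had 23 clonotypes of IGHV8-12 and IGHJ4 (17 IgM and 6 IgG) with a mean of 7.22 V mismatches and none unmutated. The highest-count junctions of both, with the bases between V and J in capitals, were:
anti-CTLA-4 mouse 2: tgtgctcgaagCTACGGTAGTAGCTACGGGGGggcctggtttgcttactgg
anti-CTLA-4 mouse 5: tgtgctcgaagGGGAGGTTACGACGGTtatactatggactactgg
In the mouse 5 lineage C111T and A161T, the latter in CDR2, were in 23 of 23 clonotypes and G261A in 22. C111T, seen above as the leading framework mismatch of IgM, thus came largely from this one lineage. Without the lineage of 87, anti-CTLA-4 mouse 2 used IGHJ3 in 17.1% of its IGHV8 clonotypes in place of 22.7%, and its switched share was 5.05% in place of 7.88%. The isotype mouse with the largest lineage, mouse 1, had 28 clonotypes of IGHV8-12 and IGHJ4 with a summed count of 11859, 24 of them IgG, and a mean of 0.536 V mismatches. In isotype mice 2 to 5 and anti-CTLA-4 mouse 3 the largest lineage held 6 to 16 clonotypes, all IgM or IgD. Their mean V mismatches were at most 0.333. Whether lineages joined separate rearrangements with similar junctions was not tested.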

How the data were processed

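B cell receptor sequencing tables, 1 per mouse, were used for 5 isotype and 5 anti-CTLA-4 mice. RNA of dissociated node cells was made into libraries using a SMART-Seq kit for the mouse receptor with unique molecular identifiers, per the labels' protocols. The authors deposited, per the file headers, a row per assembled sequence with V, J and constant calls, alignments and a whole-number count; the deposited count was used as it stands. No source used here names the aligner, the germline set or how identifiers were treated.

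From these files clonotypes, V mismatches (at least 200 aligned nucleotides, most counted sequence) and lineages (90% junction identity, single linkage) were computed in Python 3.11.15. One value per mouse was compared by exact permutation over reassignments of the mice (smallest p 0.00794), or by exact sign flips within mice (smallest p 0.00195), both two-sided, with Benjamini-Hochberg adjustment over 10 and 8 tests. Clonotype numbers of all V calls were fitted with edgeR 4.0.16 (TMM, filterByExpr, quasi-likelihood) in R 4.3.3, with DESeq2 1.42.0 as an alternative; calls were made at 0.05 after adjustment. Standard errors came from the F statistic. On simulated numbers for 95 V calls, 19 of 19 calls changed 2-fold were recovered, and 1 of the unchanged calls passed falsely. Changes as small as those seen for IGHV8 were not simulated. Replicate numbers were not taken to pair the mice: the labels name no shared litter or batch, and same-numbered mice correlated at -0.0452, 0.117, 0.212, 0.198 and 0.134 (numbers 1 to 5) in their deviations from the group means, so that 4 of 5 but not all were over 0.1. The labels do not say how the mice were housed or the libraries batched, and no batch column was used. Gene names and neighbours came from the GRCm38.p6 gene table; coordinates are not given because the files name no build. The members and lists were chosen with earlier results of these data known. All IGHV8 genes are named; clones named are the highest-count clonotype of each mouse (in all mice it was also the highest IgG or IgA clonotype) and the rearrangements found in most mice; the largest lineages were chosen after their values were seen. With 1108 to 2372 clonotypes per mouse, switched values rest on 4 to 102 of them.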

Additional observations from a re-analysis of the deposited data

Results flagged for a closer look

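By a Dixon test on 20 sets of 5 mice, of which chance flags about 1 in 20, 3 values stood apart from the rest of their group. The IGHV8 share of heavy-chain counts of isotype mouse 1 was 12.4%, with the next isotype mouse at 3.67%, and that of anti-CTLA-4 mouse 4 was 9.97%, with the next at 2.48%. The share of IGHJ3 among IGHV8 clonotypes of anti-CTLA-4 mouse 2 was 22.65%, with the next mouse of its group at 19.2%. Counted by lineages it was 17.3%.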

How the results depend on the processing

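Of 379 recomputed values for 24 results, 337 kept direction and side of the threshold. The longer CDR3 (1.27 to 1.33 amino acids) and the J gene differences between IGHV8 and other V genes passed under each of 14 alternatives. No IGHV8 gene and no between-group measure passed under any alternative. With a replicate block, edgeR called 4 V calls outside IGHV8 in place of 0; the between-group differences keep their size under it, with the smallest exact sign-flip permutation p at 0.25, and 5 pairs cannot go below 0.0625. Without TMM factors edgeR called 1, without the filter 3, and with 1 mouse left out 0 to 1 (1 without isotype mouse 4 or anti-CTLA-4 mouse 2, 3 or 5).
With 1 mouse left out, between-group differences that kept their sign ran from 0.048 to 0.325 for the share of clonotypes, -0.0645 to -0.0145 for CDR3 length, 0.441 to 1.26 for IGHJ2, -1.74 to -0.0154 for IGHJ4, 0.00306 to 0.0198 for IgM mismatches, and on the log2 scale 0.028 to 0.11 for IGHV8-12 and 0.0024 to 0.079 for IGHV8-8. The switched share was 3.76 with a count of at least 2 and 0.188 by lineages.
Between groups, signs turned as follows, the cause not tested. IgM mismatches were -0.0366 with all positions. IGHJ1 was 0.0762 with a count of at least 2, IGHJ3 -1.24 by lineages and -0.0039 in IgM alone, and IGHJ4 0.0926 by lineages. Leaving out 1 mouse gave -2.65 to 1.01 for the share of counts, -0.0997 to 1.73 for the switched share, -0.0102 to 0.1655 for switched mismatches, -0.624 to 0.442 for IGHJ1 (sign turned without isotype mouse 3 or 5 or anti-CTLA-4 mouse 2) and -0.406 to 0.823 for IGHJ3 (without isotype mouse 1 or anti-CTLA-4 mouse 2). The log2 fold change was -1.10 for IGHV8-12, -0.48 for IGHV8-12/IGHV8-5 and 0.22 for IGHV8-5 by deposited counts, and -0.012 for the joint call and -0.018 for IGHV8-2 without the filter. With 1 mouse left out it ran from -0.11 to 0.12 for the joint call, -0.070 to 0.079 for IGHV8-2 and -0.10 to 0.020 for IGHV8-5. For IGHV8-8 the log2 fold change by deposited counts kept its sign, at 1.16 (edgeR adjusted p = 0.478, and 0.531 for IGHV8-12).
Within mice, IGHV8 minus other IgM mismatches were 0.0169 with a count of at least 2, 0.146 with all positions and 0.00573 without joint calls of any V family. The switched share was -0.761 to 0.0196 with 1 mouse left out. The productive minus non-productive share was -1.08 with a count of at least 2 and 1.67 for IGHV8-5, IGHV8-8 and IGHV8-12 alone. The V-end, frame, IGHV8-2, 3-gene and highest-count alternatives, and leaving out joint calls for IgM mismatches, were added after seeing the data.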
